A study of Mus musculus with 50 samples.

Results

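Whole-tissue RNA of the nucleus accumbens (NAc) from susceptible mice was compared with that from unstressed controls, using only the input libraries of a RiboTag study. Members were chosen by their labels: 6 susceptible (Sus) and 6 control (Con) inputs, 12 of the 50 samples in the series, with 3 of each in the D1 line (RT; D1-Cre) and 3 of each in the D2 line (RT; D2-Cre). All mice were C57BL/6, 8 to 12 weeks old, and all carried a RiboTag (RT) allele that tags the ribosomal protein RPL22 where Cre is expressed, in D1-type medium spiny neurons (MSNs) of one line or D2-type MSNs of the other, with Cre driven from a BAC transgene. Sus mice had met an aggressive CD1 mouse daily for up to 10 days of chronic social defeat stress and then scored low in a social interaction test, whereas Con mice were kept in like cages beside mice of their own strain. The 6 inputs of resilient (Res) mice, which went through the same defeat without that score, entered the model for its estimate of the spread and are set beside Con for some genes. Each library came from 6 punches of 2 mm, pooled from 2 mice, and the input is cleared homogenate that was kept back from the antibody, so it holds RNA of all cells and not of the Cre-expressing MSNs alone.

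The NAc is a ventral striatal region in which MSNs are the main neurons, and they receive dopamine from the midbrain and glutamate from cortex, hippocampus and amygdala. Social defeat is widely used to study how such circuits, stress hormones, immune cells and blood vessels respond to repeated threat. In whole tissue, every measured level mixes neurons, glia, vessels and blood, so that fewer cells of a type and less RNA per cell cannot be told apart.

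The 12 libraries held between 18650045 and 24825274 gene-assigned counts each, and levels are given as CPM (counts scaled to a common library size) after TMM normalization. The labelled tissue was borne out by striatal markers: *Ppp1r1b*, which encodes DARPP-32, lay between 610 and 993 CPM and *Drd1* between 158 and 265 CPM in the 12 libraries. Some libraries stood apart. The first principal component of the 18 inputs, with 26.7% of the variance, had the D2 line Sus replicates 1 and 3 near its opposite ends. The cortical glutamate transporter gene *Slc17a7*, chosen after its values were seen, lay at 55.3 CPM in Sus replicate 1 and 899 CPM in Sus replicate 3 of that line, against 190 to 738 CPM in Con. For some results, though not for all, values without these libraries are also given. The 45S ribosomal RNA precursor *Rn45s* took 2.40% to 5.34% of the counts in the 3 D1 line Con inputs and 10.2% to 13.2% in the other 9 libraries of the comparison.

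No gene of the 14716 tested differed between Sus and Con inputs at an adjusted p under 0.05 in edgeR (0%), and the smallest adjusted p was 0.228. At an unadjusted p under 0.05, 660 genes passed in edgeR (4.48%), of which 393 were higher in Sus (2.67%) and 267 lower (1.81%). With no change in any gene, a share of 0.05 would be expected under that p, and 4.48% lies below it. The study used this threshold for its stress comparisons, but with DESeq2 on ribosome-bound RNA of D1 or D2 MSNs, so its counts are not comparable. The levels of the 6 Sus and 6 Con libraries did not overlap for 30 genes (0.204%), 21 of them higher (0.143%) and 9 lower (0.0612%). Some genes separate in this way with no change, and that share was not worked out. DESeq2 on the same genes gave 3 at an adjusted p under 0.05 (0.0204%), namely *Alas2*, *Cdyl2* and *Fam227b*, all higher in Sus. Where the mean count reached 50 (12574 genes), 95.9% of genes had a 95% confidence interval that lay within a change of 1.5-fold either way. Leaving out Sus replicate 3 of the D2 line raised the 660 genes to 1258, and leaving out both outer D2 line Sus libraries gave 744. The spread of changes over the range of levels is shown in the plot of all genes.

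**Figure D1:**
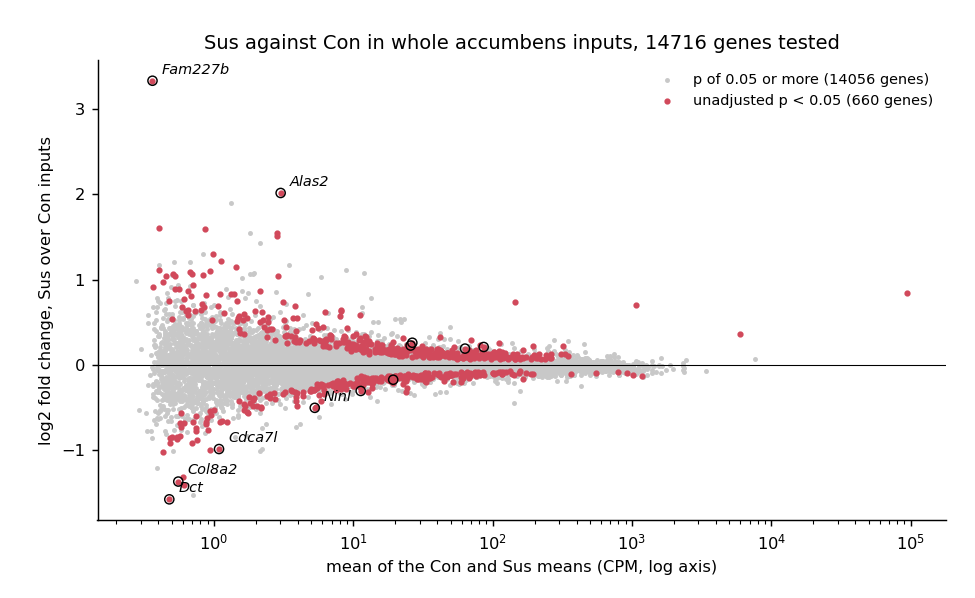
Each point is 1 of 14716 genes, with the mean of the Con and Sus group means on a log axis in CPM and the log2 fold change of Sus over Con on the vertical axis. Red points are the 660 genes at an unadjusted p under 0.05, circles mark the 12 genes with the smallest p by direction, and *Alas2* and *Fam227b* lie above the rest at 2.02 and 3.33.

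*Alas2*, which encodes the erythroid form of 5-aminolevulinate synthase, the first enzyme of heme synthesis in developing red blood cells, had the smallest adjusted p in DESeq2. Its level was 0.796 CPM at the lowest, 1.23 at the median and 1.53 at the highest in Con inputs, and 1.82, 4.26 and 9.42 in Sus inputs. All 6 Sus libraries lay above all 6 Con libraries, with the highest levels in D1 line Sus replicate 3 and D2 line Sus replicate 3 (7.22 CPM). The choice of the gene by p favours such a gap. The log2 fold change was 2.02 (standard error 0.372, unadjusted p = 3.1e-05, adjusted p = 0.228 in edgeR and 7.52e-05 in DESeq2). It was 2.02 in the D1 line and 2.00 in the D2 line, and without any single library it stayed between 1.66 and 2.20. The gene lies on chromosome X from 150547375 to 150570638 on the plus strand (GENCODE vM21, mouse build GRCm38) and overlaps *Apex2* on the other strand, which had a log2 fold change of 0.21 (unadjusted p = 0.146).

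The bases from 250 to 51 before the RefSeq start of *Alas2* (build GRCm38.p6, plus strand, chrX:150547167-150547366) are printed because this gene had the smallest adjusted p in DESeq2. Capitals mark the single match, on either strand, to AGATAA, a form of the motif bound by the erythroid factor GATA1. It begins 86 bases before the start and reads TTATCT on the strand shown:
Alas2: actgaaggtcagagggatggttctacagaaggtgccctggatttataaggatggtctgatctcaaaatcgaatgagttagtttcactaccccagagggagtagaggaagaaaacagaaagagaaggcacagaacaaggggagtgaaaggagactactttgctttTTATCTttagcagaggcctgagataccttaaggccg
The same letters occur on either strand in the like window of 8.42% of 32851 promoters, so the match is a description only.

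Other red blood cell genes were sparse. *Slc4a1*, which encodes the anion exchanger of the red cell membrane (band 3), was under the filter on low counts, with 0, 2 and 0 counts in the D1 line Con inputs and 1, 0 and 2 in those of the D2 line. In Sus it had 5, 0 and 32 counts in the D1 line and 0, 9 and 30 in the D2 line. Its highest counts thus fell in the same libraries as those of *Alas2*, and the 2 Sus libraries without *Slc4a1* counts had the lowest *Alas2* levels of the group. With every counted gene kept, its log2 fold change was 3.82 (standard error 0.939, unadjusted p = 0.000501, adjusted p = 0.918 in edgeR). The 6 adult globin symbols looked at were listed at 0 in every input, so they gave no reading of blood. Among 18 further genes of red cells and heme synthesis, chosen after *Alas2* had been seen, 8 could be tested, with a median log2 fold change of -0.03. *Urod* alone was under an unadjusted p of 0.05, at -0.13.

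*Alas2* was also higher in Res inputs than in the same Con inputs, at 3.09 to 6.45 CPM (log2 fold change 1.74, unadjusted p = 0.000179, adjusted p = 1.00 in edgeR, with 3.22% of genes under an unadjusted 0.05), so every library from defeated mice lay above every Con library. In ribosome-bound RNA, precipitated from homogenates of the same design, its level was low, and it could be tested there mainly through libraries of defeated mice, so levels are given with no test. D1-MSN precipitates (IPs) held 0 to 0.184 CPM in 4 Con and 0.29 to 0.714 CPM in 5 Sus libraries. D2-MSN IPs held 0 to 0.186 CPM in 5 Con and 0.225 to 1.16 CPM in 5 Sus libraries. Inputs and IPs of a pool share their mice and are not independent animals.

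*Cdyl2*, which encodes a chromodomain protein that binds methylated histones, had the smallest unadjusted p of all. It lay at 22.8, 24.1 and 25.6 CPM (lowest, median, highest) in Con and at 27.2, 28.2 and 31.2 CPM in Sus inputs. The groups did not overlap, which its choice by p favours, and the log2 fold change was 0.26 (standard error 0.0464, adjusted p = 0.228 in edgeR and 0.00962 in DESeq2). Unlike *Alas2*, its Res value against the same Con was 0.08 (unadjusted p = 0.0965), and its D1 and D2 IPs had values of 0.0051 and 0.022. *Fam227b*, which overlaps *Galk2* on the other strand, had 8 counts in all Con and 82 in all Sus inputs. It passed the filter on low counts only through libraries of defeated mice, so that a difference was built into its selection, for the DESeq2 call too. Its level ran from 0 to 0.152 CPM in Con and from 0.145 to 1.40 CPM in Sus, and 1 Sus library lay within the Con range. The Res inputs ran from 0.0486 to 0.548 CPM.

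The other 3 genes picked as highest by p had log2 fold changes from 0.19 to 0.23. *Ankrd26*, which encodes an ankyrin repeat protein of the centriole, lay at 22.5 to 25.5 CPM in Con and 26.5 to 29.1 CPM in Sus (log2 fold change 0.23, standard error 0.0478). *Tmem178b* lay at 56.7 to 61.4 CPM in Con and 61.6 to 76.1 CPM in Sus (0.19, standard error 0.0463). For both, no Sus library fell within the Con range, as for 0.143% of all genes in this direction, and their choice by p favours this. *Lnpep*, whose product is an aminopeptidase that cleaves oxytocin and vasopressin, overlapped between groups, with 69.1 to 87.0 CPM in Con and 84.5 to 104 CPM in Sus (0.21, 0.29 in the D1 line and 0.13 in the D2 line).

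Of the 6 genes picked as lowest by p, none passed the adjusted threshold (adjusted p = 0.979 each in edgeR). *Dct*, which encodes dopachrome tautomerase of melanin synthesis, was rare in both groups, and no Sus library helped it past the filter on low counts, so its place among the lowest is partly set by that filter. It ran from 0.331 to 1.14 CPM in Con and from 0.0484 to 0.383 CPM in Sus (log2 fold change -1.57, standard error 0.368). *Cdca7l*, a Myc-associated transcription regulator, was at 1.22 to 1.84 CPM in Con and 0.383 to 1.07 CPM in Sus (-0.98, standard error 0.252). The collagen gene *Col8a2* was at 0.644 to 1.248 CPM in Con and 0.145 to 0.6 CPM in Sus (-1.37, standard error 0.361), and it too passed the filter mainly through Con. *Ninl*, which encodes a ninein-like protein of the centrosome, was better covered, at 5.51 to 7.14 CPM in Con and 3.15 to 4.94 CPM in Sus (-0.50, standard error 0.131). *Cdca7l*, *Col8a2* and *Ninl* did not overlap between Sus and Con, as 0.0612% of all genes did not in this direction, and their choice by p favours this.

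*Cd68*, a lysosomal gene of microglia and macrophages, lay at 11.3, 12.4 and 14.1 CPM in Con and at 9.15, 9.93 and 11.7 CPM in Sus, where 5 of 6 libraries were below the lowest Con library (log2 fold change -0.30, standard error 0.0819, unadjusted p = 0.00146). *Cbs*, which encodes cystathionine beta-synthase, lay at 18.4 to 21.5 CPM in Con and 16.6 to 19.95 CPM in Sus (-0.17, standard error 0.0444). In the plot of single libraries, the Res inputs lay between or across the other groups for *Cd68*, *Cdca7l* and *Ninl*, at log2 fold changes over Con of -0.11, -0.34 and -0.10. The Res values of *Cbs*, *Dct* and *Col8a2* over the same Con were -0.11, -0.87 and -0.35, beside Sus values of -0.17, -1.57 and -1.37.

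**Figure D2:**
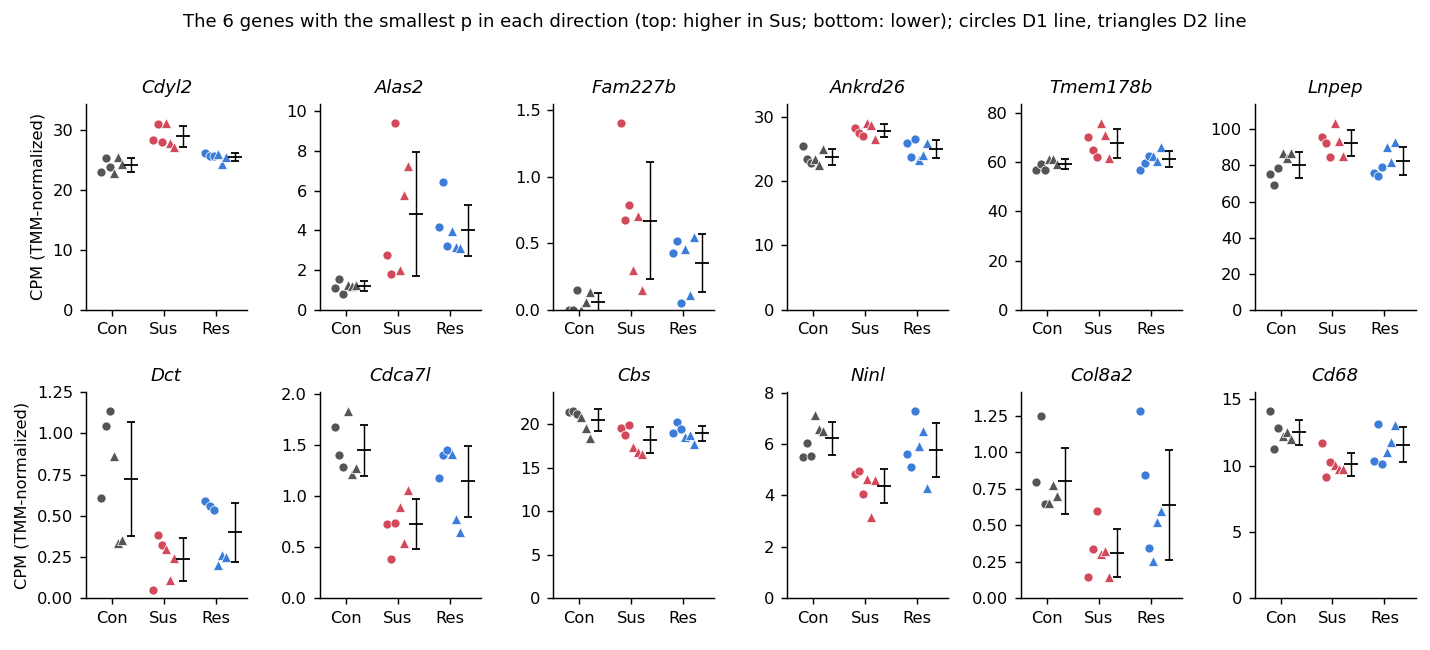
Each point is 1 input library, with its level in CPM on the vertical axis and the Con, Sus and Res groups along the horizontal axis. Circles are D1 line and triangles D2 line libraries, bars are the mean with SD over 6 libraries, and *Alas2* in Sus spans 1.82 to 9.42 CPM against 0.796 to 1.53 CPM in Con.

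Among the 24 MSN genes, none passed an unadjusted p of 0.05, yet all 24 log2 fold changes were below 0, from -0.10 to -0.0013 with a median of -0.07. Over all genes tested, 7399 of 14716 values were below 0 and the median was -0.00049. The dopamine receptor genes *Drd1* and *Drd2* had values of -0.05 and -0.04, and *Ppp1r1b* had -0.08. The summed level of the list ranged from 9356 to 13079 CPM in Con (median 9859) and from 8465 to 11111 CPM in Sus (median 10195), so the group medians lay the other way. D1 line Con replicate 1 stood highest at 13079 CPM and the outer D2 line Sus libraries lowest. Without those Sus libraries the median was 0.00073, and without that Con library *Ppp1r1b* was at 0.0066.

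Genes of glutamate and GABA signalling had small log2 fold changes. In the list of Shisa and AMPA receptor genes, 1 of 18 was lower at an unadjusted p under 0.05 (1.81% of all genes were), none was higher, and the median was -0.07. *Shisa9*, whose product is an auxiliary subunit of AMPA receptors, lay at 139, 147 and 158 CPM in Con and at 128, 137 and 141 CPM in Sus. Its log2 fold change was -0.12 (standard error 0.0377, unadjusted p = 0.00546, adjusted p = 0.979 in edgeR), with -0.11 and -0.13 in the D1 and D2 lines. Res inputs had -0.11 over the same Con, near the Sus value. *Shisa6*, of the same family, lay at 12.8 to 17.0 CPM in Con and 14.2 to 18.01 CPM in Sus inputs (0.13, 95% interval -0.09 to 0.34). Its value was 0.27 in the D1 line and -0.015 in the D2 line inputs, and 0.30 in D1 IPs (unadjusted p = 0.0303) against 0.00057 in D2 IPs, where 5.34% and 3.68% of all genes were under an unadjusted p of 0.05. *Shisa7* and *Shisa8* had values of 0.0017 and -0.47 in inputs, with no p under 0.05. The *Shisa8* value was -0.77 without D2 line Sus replicate 3.

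Of 14 GABA receptor genes, 2 subunit genes were higher at an unadjusted p under 0.05, against 2.67% of all genes, and none lower. *Gabrb1* lay at 36.1 to 43.7 CPM in Con and 40.6 to 49.1 CPM in Sus (log2 fold change 0.18, standard error 0.0526). *Gabra3* lay at 87.1 to 112 CPM in Con and 105 to 125 CPM in Sus (0.16, standard error 0.0641), with the lowest Con library far below the others. Of 20 neuropeptide genes *Pnoc*, which encodes prepronociceptin, alone was under that p (4.48% of all genes were), at 2.06 to 4.03 CPM in Con and 2.76 to 9.63 CPM in Sus (0.69), and its value was 0.34 without D2 line Sus replicate 1.

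Lists of stress and activity genes held no member under an unadjusted p of 0.05. The 20 glucocorticoid-responsive genes had a median log2 fold change of -0.05, with 17 values below 0, against 7399 of all 14716 genes. Their median in Res over the same Con was 0.031. *Fkbp5*, a co-chaperone of the glucocorticoid receptor, lay at 38.3 to 44.3 CPM in Con and 37.1 to 42.5 CPM in Sus (95% interval of the log2 fold change -0.17 to 0.07). The 11 tested genes of corticosteroid and CRH signalling had a median of -0.0064. The 24 immediate early genes had a median of -0.01. *Fos* was at 3.14, 6.23 and 8.70 CPM in Con and at 4.64, 6.04 and 17.2 CPM in Sus, and its value of 0.30 became -0.10 without the highest library, D2 line Sus replicate 3. *Bdnf* had a value of -0.016 with a 95% interval from -0.73 to 0.69, so that a change of 1.5-fold was not excluded at this spread. The 15 tested genes of inflammation and interferon response had a median of 0.20, with 13 values above 0, against 7317 of all 14716 genes, and none under an unadjusted p of 0.05. Their median was 0.095 in the D1 and 0.21 in the D2 line. Their summed level overlapped, at 185 to 199 CPM in Con and 173 to 244 CPM in Sus.

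Among 18 circadian clock genes, *Arntl* (BMAL1), the core activator, alone was under an unadjusted p of 0.05, as were 4.48% of all genes. It lay at 30.4, 35.1 and 38.7 CPM in Con and at 28.04, 30.5 and 32.3 CPM in Sus, with 3 of 6 Sus libraries below the Con range. The log2 fold change was -0.19 in each line (standard error 0.0601 over both, unadjusted p = 0.00515, adjusted p = 0.979 in edgeR). Of the others, chosen after the values were seen, *Npas2* and *Cry2* had values of -0.11 and -0.09 and *Per2* had 0.13, none under 0.05. In the D1 and D2 IPs *Arntl* had log2 fold changes of 0.0033 and 0.0067. The study collected tissue over a window of hours, and no time is given per library. The part of time of day was not tested.

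Markers of glia gave few calls. None of 14 microglia, 18 oligodendrocyte or 8 oligodendrocyte precursor genes was under an unadjusted p of 0.05, with medians of 0.0056, -0.02 and -0.01. Without the outer D2 line Sus libraries these medians were -0.0042, -0.087 and -0.071. Of 14 astrocyte genes the glutamate transporter gene *Slc1a3* alone was under it, against 4.48% of all genes, at 529 to 628 CPM in Con and 504 to 572 CPM in Sus (log2 fold change -0.10). Its Res value over the same Con was -0.11. *Gfap* had a 95% interval from -0.37 to 0.28. Of 9 ependymal genes tested 7 were below 0, with a median of -0.34 that became -0.021 when genes under a mean count of 50 were dropped. *Dnali1*, an axonemal dynein gene, was the one under an unadjusted p of 0.05, at 0.483 to 1.35 CPM in Con and 0.0484 to 0.815 CPM in Sus (-1.31, standard error 0.401), and passed the filter on low counts mainly through Con. Its Res value over the same Con was -1.47.

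Of 17 endothelial genes 13 had values above 0 (median 0.06), against 7317 of all 14716 genes, 2 were higher at an unadjusted p under 0.05, against 2.67% of all genes, and none was lower. *Vwf*, which encodes von Willebrand factor, lay at 6.97, 8.998 and 10.5 CPM in Con and at 9.64, 13.04 and 20.05 CPM in Sus, 4 of whose 6 libraries were above the Con range (log2 fold change 0.58, standard error 0.159, unadjusted p = 0.00162, adjusted p = 0.979 in edgeR). *Ly6c1* had 0.28, which fell to 0.12 without D2 line Sus replicate 2, at 21.6 CPM. *Cldn5*, a tight junction gene of the blood-brain barrier, had -0.09. The list's median was -0.00081 in the D1 line and 0.13 in the D2 line, and 0.0038 without the outer D2 line Sus libraries. Of 10 mural cell genes *Abcc9* alone was under 0.05, against 4.48% of all genes (0.27, with 0.10 in the D1 and 0.43 in the D2 line). The mural median was 0.09, with 9 values above 0, or 0.029 without the outer D2 line Sus libraries.

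Markers of other neurons were read to see what else the punches held. The 12 cortical excitatory neuron genes had a summed level of 1249 to 1955 CPM in Con and 859 to 2131 CPM in Sus, with D2 line Sus replicates 1 and 3 at the extremes, and a median log2 fold change of -0.06. The 12 tested septal, thalamic and hypothalamic genes had a median of 0.17, which was 0.018 without Sus replicate 1 of the D2 line. Among them *Lhx2*, a developmental transcription factor gene, was at 23.0 to 30.3 CPM in Con and 13.9 to 30.2 CPM in Sus (-0.32, unadjusted p = 0.0354). It alone of that list was under 0.05, against 4.48% of all genes. Its value was -0.46 without D2 line Sus replicate 3 and -0.22 without D2 line Sus replicate 1. The 8 cholinergic interneuron genes had a median of 0.24, with 7 values above 0, or 0.041 without D2 line Sus replicate 1. The part of tissue composition in the results above was not tested. Lists for meningeal, choroid plexus, peripheral immune, GABAergic interneuron and dopamine neuron genes had medians from -0.20 to 0.15. So did those for neurotrophin, heat shock, axon, extracellular matrix and cholesterol synthesis genes. Their members under an unadjusted p of 0.05 were *F5* and *Idi1*, against 4.48% of all genes. *F5* (0.58, choroid plexus) passed the filter on low counts mainly through libraries of defeated mice, and its Res value over the same Con was 0.90. *Idi1* (cholesterol synthesis) had 0.19. Without the outer D2 line Sus libraries the meningeal median of -0.17 was -0.42, and the choroid plexus median of 0.15 was 0.22. None of the 13 mitochondrially encoded genes was in the table. The plot of gene lists gives every tested member.

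**Figure D3:**
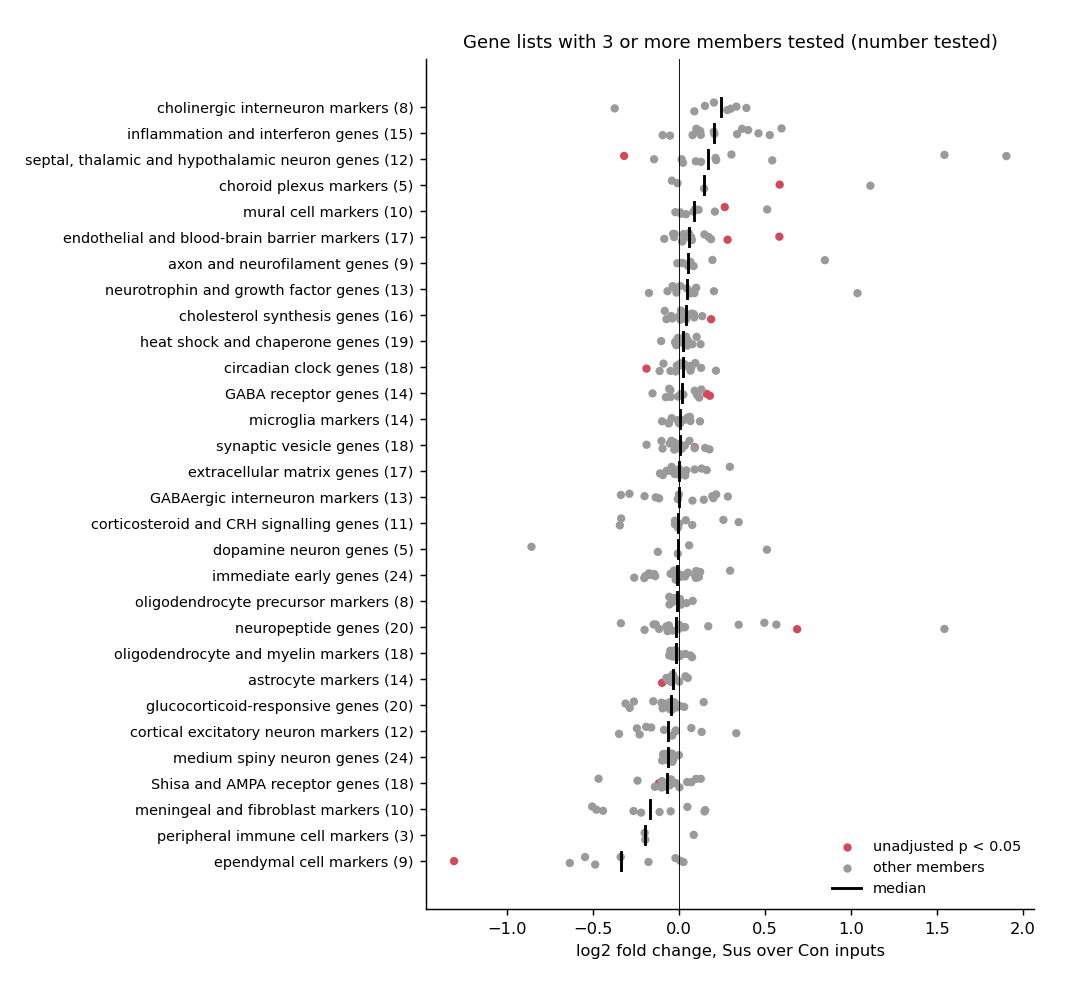
Each row is a gene list with 3 or more members tested, each point the log2 fold change of 1 member in Sus over Con inputs, and each black line the list's median. Red points are members at an unadjusted p under 0.05, and the 24 MSN genes lie in a narrow band between -0.10 and -0.0013.

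The 2 lines were compared by the interaction of line and stress. No gene passed an adjusted p of 0.05 in edgeR, and 276 passed an unadjusted p of 0.05 (1.88%). Within the D1 line 2 genes passed the adjusted threshold (0.0136%) and 464 the unadjusted one (3.15%), and within the D2 line 0 and 401 (2.72%). The 2 were *Rn45s* and the nuclear long noncoding RNA *Malat1*, named for their calls. *Rn45s* lay at 21879, 29313 and 51149 CPM in D1 line Con inputs and at 102956 to 120054 CPM in D1 line Sus inputs (log2 fold change 1.71, adjusted p = 0.0128 in edgeR). In the D2 line it lay at 102097 to 123550 CPM in Con and 105153 to 137734 CPM in Sus (0.017). *Malat1* lay at 3570, 4259 and 5021 CPM in D1 line Con and 6909 to 7141 CPM in D1 line Sus inputs (0.71, adjusted p = 0.0128). In the D2 line it lay at 6122 to 6458 CPM in Con and 6241 to 6497 CPM in Sus (0.0081). The D1 line Con inputs thus lay apart from all other Con and Sus inputs, and the D1 line Res inputs, at 60602 to 84484 CPM of *Rn45s*, lay between. The interaction of both genes had an adjusted p of 0.815 in edgeR but of 0.0395 for *Rn45s* and 0.00655 for *Malat1* in DESeq2.

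Of the 12 genes picked by p, the D1 and D2 values had the same sign for each, as the plot by line shows, and their choice over both lines favours this. *Alas2* (2.02 and 2.00), *Cdyl2* (0.27 and 0.25), *Tmem178b* (0.19 and 0.20) and *Cd68* (-0.30 and -0.31) had close values in the lines. The values of *Ninl* (-0.30 and -0.70) were further apart, with an unadjusted p of 0.138 for the difference in edgeR. So were those of *Fam227b* (3.99 and 2.40). That gene passed the filter on low counts only through libraries of defeated mice, so no test of its difference is given.

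**Figure D4:**
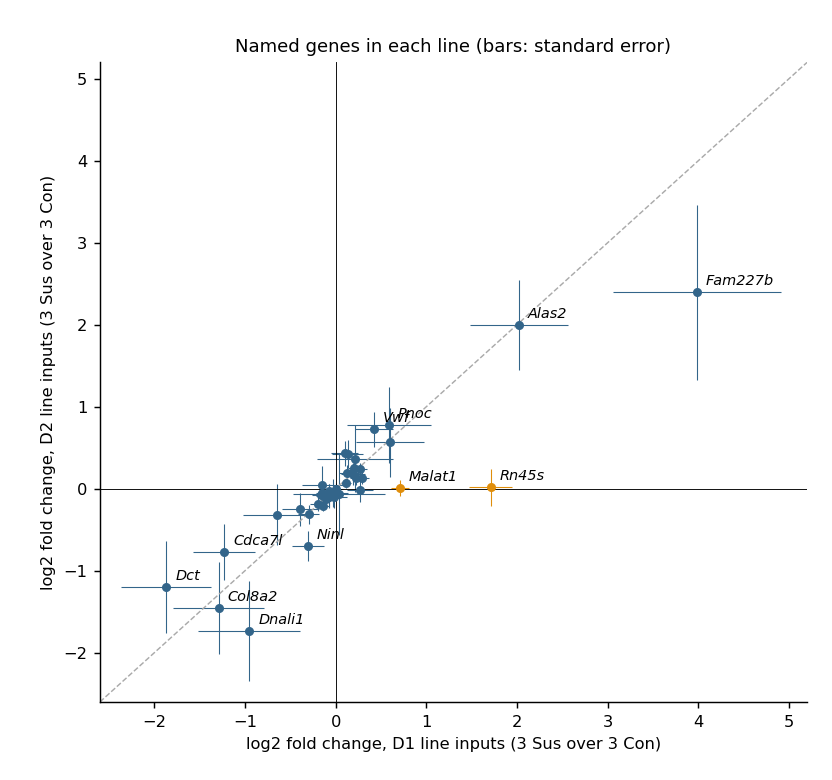
Each point is a named gene, with its log2 fold change of Sus over Con in the D1 line inputs on the horizontal and in the D2 line inputs on the vertical axis, bars giving standard errors and the dashed line equality. *Alas2* sits on that line near 2.02 and 2.00, whereas *Rn45s* and *Malat1* (orange) lie at 1.71 and 0.71 in the D1 line and at 0.017 and 0.0081 in the D2 line.

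Reads that aligned outside annotated exons took a larger share in Sus. Relative to these reads plus those on genes, the share was 23.4%, 24.9% and 25.7% (lowest, median, highest) in Con and 25.0%, 25.8% and 27.2% in Sus inputs, with overlap. The mean was 24.7% ± 0.831 (SD, n = 6) in Con and 26.1% ± 0.873 (SD, n = 6) in Sus. The difference of 1.35 percentage points had p = 0.025 (two-sided exact permutation test within line, 400 relabellings, smallest possible p 0.005). Without D2 line Sus replicate 1 it was 1.12 points (exact p = 0.06), and without D1 line Con replicate 2 or D2 line Sus replicate 2 the exact p was 0.05. It was 1.81 points in the D1 line (p = 0.1, the smallest that an exact test of 3 against 3 allows) and 0.887 in the D2 line (exact p = 0.3). The genes higher in Sus at an unadjusted p under 0.05 had a median genomic span of 53.9 kb and those lower one of 15.1 kb, against 25.2 kb for all tested genes with a known span. The median log2 fold change ran from -0.016 in the quartile of shortest genes to 0.011 in that of the longest. The part of these library differences in the counts above was not tested.

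**Figure D5:**
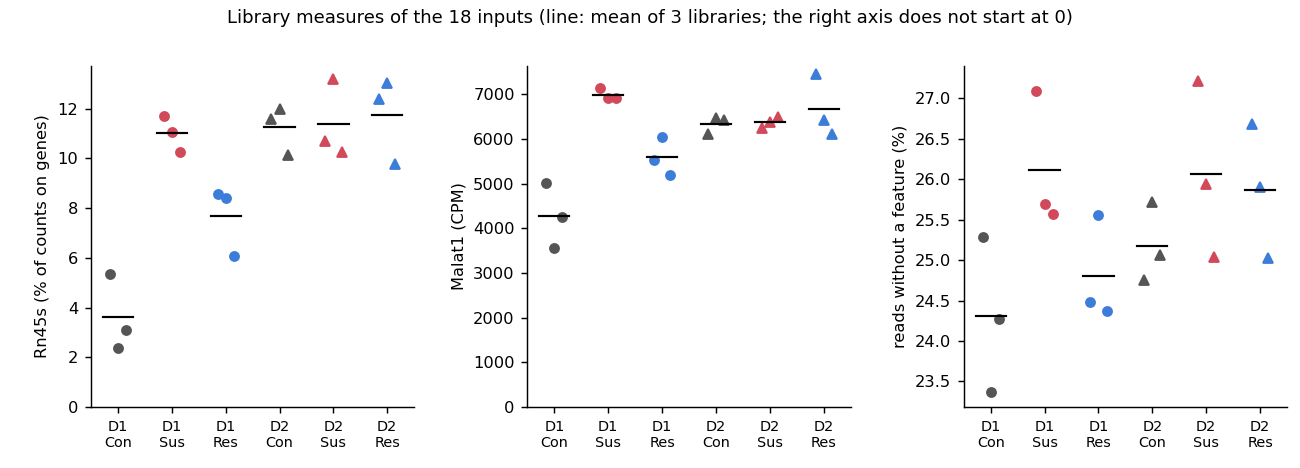
Each point is 1 of the 18 inputs, grouped by line and stress, with the share of counts on *Rn45s*, the level of *Malat1* in CPM and the share of reads without a feature on the 3 vertical axes and a line for the mean of 3 libraries. The D1 line Con inputs lie lowest for *Rn45s* (2.40% to 5.34%), and the right-hand axis does not start at 0.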

How the data were processed

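Poly-A RNA of homogenate inputs was sequenced on stranded libraries. According to the study's methods, the authors trimmed reads with cutadapt, aligned them with STAR to mm10 and counted them with HTSeq, and the deposited values are raw counts per gene; versions and the strand setting are not given in the sources used here. Of 24552 genes, those passing filterByExpr in edgeR 4.0.16 (minimum count 10, minimum total 15) were kept, giving 14716. The 5 entries that name no gene held 36.1% to 40.0% of all entries and were left out, as were 2 columns of no listed sample. A second count table, of D1 IPs from a knockout experiment, was not used.

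Sus and Con were compared by the quasi-likelihood test of edgeR (R 4.3.3, TMM, line as covariate, 18 inputs) with Benjamini-Hochberg adjustment over all genes, and by DESeq2 1.42.0 as an alternative. Each sample pools 2 mice, so p-values measure the spread between pools; libraries were run in 4 sets not named per library, so that batch could not be entered. Replicates differed beyond sampling noise (chi-square per gene 3.60 to 33.4).

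The genes named are the 6 highest and 6 lowest by p, list members under an unadjusted p of 0.05 and a set given always; others are said to be chosen after their values were seen, as are *Oxt*, *Gal*, *Flt1* and *Neurod2*. Members and gene lists were chosen with earlier results of these data known. Scripts were tested on simulated data. Some named genes are not reported here.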

Additional observations from a re-analysis of the deposited data

Results flagged for a closer look

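Of 168 groups of 6 libraries looked at, 14 had a highest or lowest library set apart by Dixon's criterion, where chance gives about 1 in 20. Among Con inputs, D1 line replicate 1 was highest for *Ppp1r1b* (993 CPM, next 770) and for the summed MSN genes (13079 CPM, next 10699), and lowest for *Gabra3* (87.1 CPM, next 108). D1 line Con replicate 2 was highest for *Col8a2* (1.248 CPM), D2 line Con replicate 3 for *Ly6c1* (12.8 CPM) and D2 line Con replicate 1 for the summed peripheral immune markers (11.4 CPM).

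Among Sus inputs, D2 line replicate 3 was highest for *Fos* (17.2 CPM, next 7.52), *Shisa8* (6.16 CPM, next 3.16), the summed astrocyte markers (5745 CPM) and the summed neurotrophin genes (1782 CPM). D2 line Sus replicate 2 was highest for the endothelial genes *Ly6c1* (21.6 CPM, next 12.98) and *Adgrl4* (16.8 CPM, next 13.6), the latter chosen after its values were seen. D2 line Sus replicate 1 was lowest for *Shisa7* (281 CPM, next 313) and *Npas2* (59.6 CPM, next 72.5).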

How the results depend on the processing

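The count of genes at an adjusted p under 0.05 was 0 in edgeR and 0 without any single library, 3 in DESeq2 and 2 in the D1 line alone. The 660 genes at an unadjusted p under 0.05 became 527 to 1258 without one library and 401 in the D2 line alone. Replicate numbers were not taken as pairs. Con and Sus libraries of the same number had correlations of 0.095 to 0.21 in the D1 line, where the best match always had the same number. In the D2 line they ran from -0.39 to 0.036, and the best match never had the same number. With a replicate block the count was 671, or 571 with the block within line. The interaction gave 0 calls in edgeR, 2 in DESeq2 and 0 to 2 without one library, the 2 being *Malat1* and *Rn45s* without D1 line Con replicate 1. The difference in reads without a feature was 1.07 to 1.56 percentage points without one library, 1.81 in the D1 and 0.887 in the D2 line. Signs turned for small values: *Shisa6* -0.015 and *Shisa7* -0.0012 and *Gfap* 0.052 in the D2 line, *Shisa7* -0.0028 with every counted gene, *Bdnf* 0.025 with the block within line and 0.035 in the D1 line, and *Drd1* 0.046, *Drd2* 0.049 and *Fos* -0.011 without both outer D2 line Sus libraries, an alternative chosen after seeing the data. Without one library, *Shisa7* ran from -0.023 to 0.024, *Drd1* from -0.095 to 0.034, *Drd2* from -0.099 to 0.048, *Ppp1r1b* from -0.13 to 0.0066, *Gfap* from -0.12 to 0.065, *Fos* from -0.10 to 0.43 and *Bdnf* from -0.23 to 0.23. The causes were not tested.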
